A study of Mus musculus with 4 samples.

Results

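Cebpa, Cebpb, Cebpe, Gfi1, Spi1, Irf8 and Klf4 are 7 transcription factor genes of the myeloid lineages, chosen by name from the 32285 genes of the files. They were followed in mouse bone marrow cells sorted on CD45.2, an allele of CD45 that labels the cells of a graft, with the marrow collected 10 weeks after transplantation. Each group was 1 library of single cells. Kit+ cells, a fraction rich in stem and progenitor cells, came from a control, from Mll3/4 deleted donor cells and from Mll3/4SI donor cells, called deleted and SI here. A B220lo fraction, which holds B-lineage cells, came from the control. Mll3 and Mll4 (Kmt2c and Kmt2d) encode large proteins of histone methyltransferase complexes that act at enhancers. The labels give neither the meaning of SI, nor the driver or time of the deletion, nor the number of mice behind a library. With 1 library a group no difference was tested, and every interval below is a 95% interval that covers counting error only.

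The members have known places in blood formation. Spi1 (PU.1) is an ETS factor needed for both granulocytes and monocytes and, at lower levels, for B cells. Cebpa opens the granulocyte-monocyte path, Cebpb acts in emergency granulopoiesis and macrophages, and Cebpe drives the late steps of granulocyte maturation. Gfi1 is a zinc-finger repressor that favours the neutrophil fate and also acts in stem and B-lineage cells. Irf8 favours the monocyte and dendritic fates, is made in B cells too, and acts upstream of Klf4 in monocytes.

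Cells were read through 6 gates set on raw counts of unique molecular identifiers (UMIs) of a marker gene. The Hlf gate (at least 1 UMI) takes stem-like cells, the Flt3 gate (at least 2) multipotent progenitors, the Elane gate (at least 10) neutrophil progenitors and the F13a1 gate (at least 2) monocyte progenitors. The Fcer1a gate (at least 3) takes mast cell or basophil progenitors, and the Cd79a gate (at least 3) B-lineage cells. The gates overlap: 1878 of the 2047 control cells of the F13a1 gate were also in the Elane gate, so these gates are not independent groups of cells. Levels are given as CPM (counts per 1000000): the UMIs of a gene among all UMIs summed over the cells of a gate in a library. A ratio was called at 2-fold or more, and only for a gene with at least 10 UMIs expected in the smaller of the libraries compared.

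The gate sizes differed widely between the libraries. In control, deleted and SI Kit+ cells, in that order, the Hlf gate held 2493, 186 and 3238 cells and the Flt3 gate 1066, 830 and 1227. The Elane gate held 4223, 554 and 3345 cells, and the F13a1 gate 2047, 394 and 1131. The Fcer1a gate held 127, 4 and 2341 cells, and the Cd79a gate 47, 12591 and 28, beside 10840 in the control B220lo library. Median depth over all kept cells ranged from 3246 to 11969 UMIs across the 4 libraries, and between 178 and 292 cell barcodes were shared by a pair of libraries.

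In control Kit+ cells the neutrophil, monocyte, mast cell or basophil, and B-lineage markers each summed highest in their own gate. For the neutrophil markers the margin was small, at 29815 CPM in the Elane gate against 27651 CPM in the F13a1 gate. The neutrophil markers thus hardly singled out their own gate. The stem and multipotent markers did not single out theirs: stem markers summed to 864 CPM in the Hlf gate, 860 in the Flt3 gate and 879 in the Fcer1a gate, and multipotent markers to 3593 CPM in the Flt3 gate, 3975 in the Elane gate and 4023 in the F13a1 gate. In the Flt3 gate of deleted cells, 8 markers of multipotent cells summed to 444 CPM against 3593 CPM in control, while 10 B-lineage markers summed to 10321 CPM against 59.3 CPM. Of these 830 deleted cells, 772 were also in the Cd79a gate. B-lineage markers also stood at 899 CPM in the Hlf gate, 850 CPM in the Elane gate and 1130 CPM in the F13a1 gate of deleted cells, against 44.2, 55.3 and 64.3 CPM in control. Between 41.9% and 44.9% of the deleted cells in these 3 gates had a Cd79a UMI, and the median depth of the deleted Elane gate, 19854 UMIs, was above the 6507 UMIs of the library as a whole. The part of cell mixtures or free RNA in these values was not tested. Sex also differed with genotype: 4 Y-linked genes summed to between 94.3 and 152 CPM in every gate of the deleted library, its Elane gate included (136 CPM), and to no more than 0.0516 CPM in the control and SI Kit+ gates other than the SI Cd79a gate of 28 cells (8.28 CPM). Sex and genotype cannot be told apart here. Over all kept cells Kmt2c stood at 58.1, 51.8 and 62.7 CPM and Kmt2d at 24.0, 20.1 and 20.7 CPM in control, deleted and SI Kit+ cells; 5′ counts do not tell whether a deleted exon is present, so they do not check the labels.

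Libraries of this 5′ kit count transcripts from near their start, so the stretches before the start sites of 3 members with different behaviour in SI cells are shown. RefSeq promoters (GRCm38.p6) were matched for 5 of the 7 members, and not for Cebpe and Spi1. Each line gives the 100 bases that end just before the start, read 5′ to 3′ on the gene's strand, with the letters TATAAA in capitals:
Cebpa, chr7:35119193-35119292, plus strand: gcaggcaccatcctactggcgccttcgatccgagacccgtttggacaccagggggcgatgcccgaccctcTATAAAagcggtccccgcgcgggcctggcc
Irf8 (the first of its listed starts), chr8:120736258-120736357, plus strand: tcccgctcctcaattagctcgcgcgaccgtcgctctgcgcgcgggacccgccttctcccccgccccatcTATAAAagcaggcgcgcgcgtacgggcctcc
Cebpb, chr2:167688815-167688914, plus strand: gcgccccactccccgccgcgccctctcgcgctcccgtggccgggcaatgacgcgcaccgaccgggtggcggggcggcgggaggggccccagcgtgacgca
The TATAAA letters begin 30 bases before the start of Cebpa and 31 before that of Irf8. In Cebpb they lie 21 bases after the start, outside the printed stretch, and the windows of Klf4 and Gfi1 do not hold them. On either strand, 13.6% of 32851 promoter windows of 300 bases held TATAAA. For letters read by the members' own families, GAGGAAGT (Spi1), a pair of GAAA with any 2 bases between them (IRF factors), TTGCNNAA (C/EBP factors) and CCCCACCC (KLF factors) were searched on both strands of the same windows. They were held by 3.20%, 3.44%, 10.8% and 9.99% of all windows. Among the members, 1 C/EBP match was found in Gfi1 and 1 KLF match in Cebpa. These are matches of letters only.

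On the mm10 (GRCm38) annotation of GENCODE M21, Cebpa lies at chr7:35119293-35121928 and Cebpb at chr2:167688915-167690418. Cebpe lies at chr14:54710360-54712174, Gfi1 at chr5:107716657-107726036 and Spi1 at chr2:91082390-91115756. Irf8 lies at chr8:120736358-120756694 and Klf4 at chr4:55527143-55532466. Cebpa, Cebpb and Gfi1 overlap a gene on the opposite strand (Gm45091, Tmem189 and A430072P03Rik), and Irf8 overlaps Gm20388 on its own strand. How reads there were divided is not given in the sources used here.

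In control Kit+ cells each member had its own order over 5 gates, the Cd79a gate of 47 cells being left aside here. In this and the next paragraph, counting error between gates was reckoned as if they shared no cells. As the gates overlap, statements that values did not differ beyond it are descriptions only. Irf8 was highest in the F13a1 gate, at 292 CPM (286 to 298), followed by 166 CPM in the Flt3 gate and 164 CPM in the Elane gate, which did not differ beyond counting error. It fell away to 56.3 CPM in the Hlf gate and 26.0 CPM in the Fcer1a gate. Klf4, a factor of monocyte differentiation, was rare everywhere and was also highest in the F13a1 gate, at 6.80 CPM, against 3.42 CPM in the Elane gate. In the Hlf and Flt3 gates Klf4 stood at 0.648 and 0.624 CPM, and no Klf4 UMI was found in the Fcer1a gate, which allows up to 2.11 CPM at 3 counts.

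The granulocyte-directed members were highest in the Elane gate. Cebpe stood at 82.2 CPM (80.0 to 84.5) there, against 36.1 CPM in the Hlf gate, 33.3 CPM in the F13a1 gate, 26.0 CPM in the Fcer1a gate and 15.7 CPM in the Flt3 gate. Its values in the Hlf and F13a1 gates did not differ beyond counting error, nor did those in the F13a1 and Fcer1a gates. Gfi1 stood at 73.7 CPM in the Elane gate, 50 CPM in the F13a1 gate, 43.7 CPM in the Hlf gate and 40.3 CPM in the Flt3 gate. It was lowest in the Fcer1a gate, at 11.9 CPM (6.95 to 19.1). Cebpb peaked in the F13a1 gate at 124 CPM, followed by 109 CPM in the Elane gate and 68.1 CPM in the Fcer1a gate. It stood at 54.8 CPM and 53.6 CPM in the Hlf and Flt3 gates, which did not differ beyond counting error.

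Spi1 and Cebpa spanned a narrower range over these 5 gates. Spi1 lay between 188 CPM in the Fcer1a gate and 290 CPM in the F13a1 gate, close to the 285 CPM of the Elane gate. Most control cells of the F13a1 gate were also in the Elane gate. Cebpa was highest in the Fcer1a gate, at 102 CPM (86.5 to 121), and lowest of the 5 in the Hlf gate, at 54.2 CPM. In the 47 cells of the Cd79a gate Spi1 stood at 155 CPM and Cebpa, with 5 UMIs, at 15.9 CPM (5.15 to 37.0). Apart from Cebpb, and Klf4 in the Fcer1a and Cd79a gates, the levels of every gate stood at least 4-fold over those in erythroid cells of the same library (at least 3 UMIs each of Klf1 and Car1), where Spi1 was at 21.3 CPM, Irf8 at 4.29, Cebpa at 3.67, Gfi1 at 1.68, Cebpe at 1.32 and Klf4 at 0.122 CPM. Cebpb stood at 23.7 CPM in these erythroid cells.

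**Figure D1:**
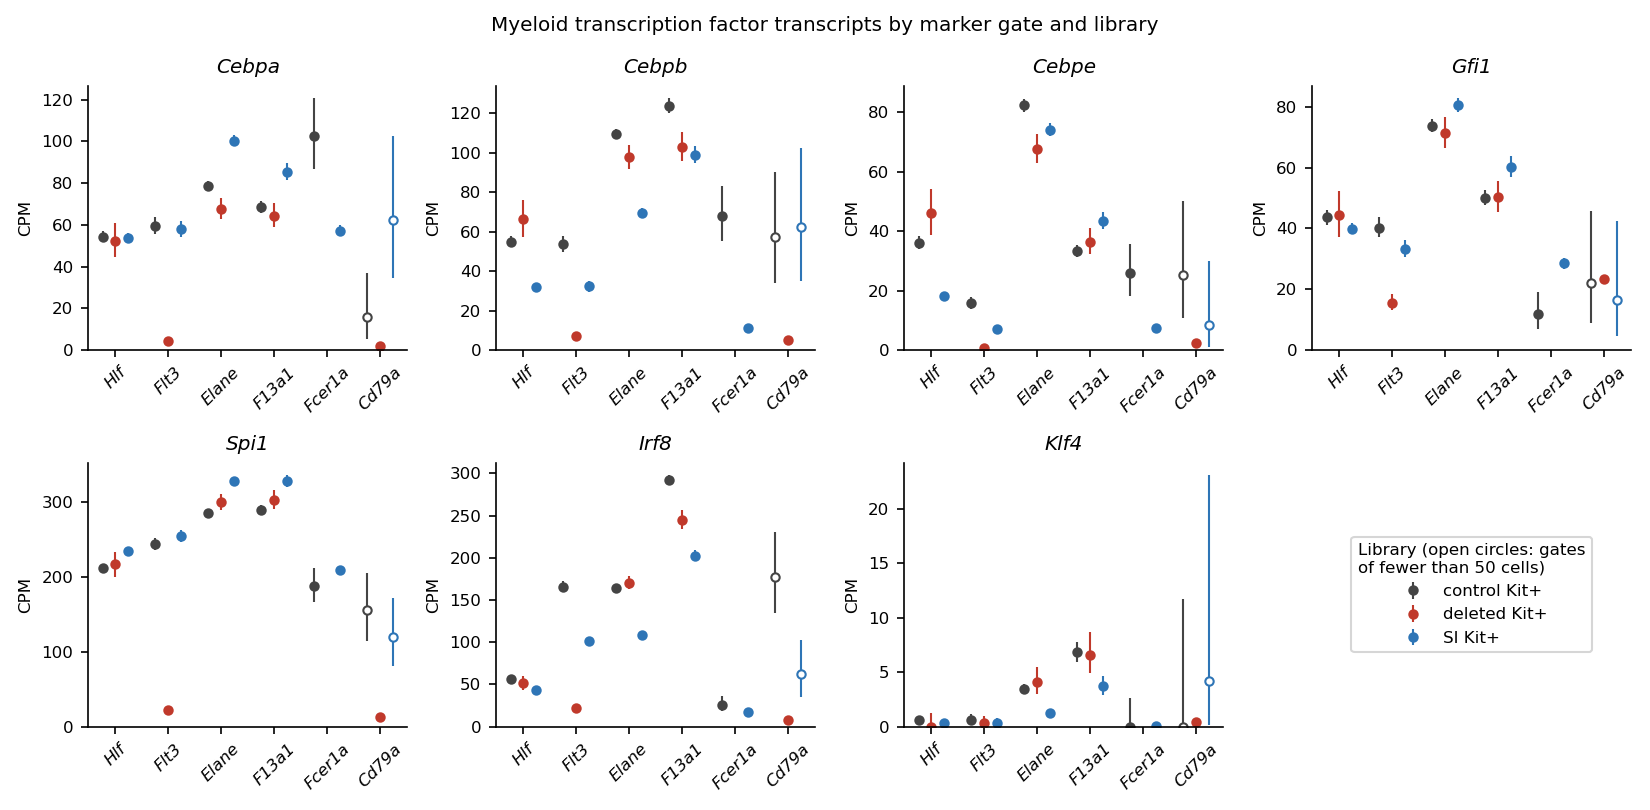
Level of each factor (CPM, linear axis from 0) in the 6 gates of the 3 Kit+ libraries, with exact 95% Poisson intervals of the UMI count; open circles are gates of 20 to 49 cells, and the 4 deleted cells of the Fcer1a gate are not drawn. The deleted points stand near control in the Hlf, Elane and F13a1 gates and under it in the Flt3 gate for the 6 factors tested there (Gfi1 at 15.6 against 40.3 CPM), while the SI points for Cebpb and Irf8 lie under control from the Hlf to the F13a1 gate.

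Within the Elane gate, cells with an Irf8 UMI less often held Cebpe or Gfi1 than cells without one, though many held both. Of the 2331 control cells with an Irf8 UMI, 33.6% had a Cebpe UMI, against 66.5% of the cells without one. For Gfi1 the shares were 47.4% and 66.1%, and 1104 of the 4223 control cells (26.1%) held both Irf8 and Gfi1. The Gfi1 shares were 48.7% and 70.1% in deleted cells and 56.6% and 65.2% in SI cells, where the contrast was weaker. In the deleted Elane gate 22.7% of the Irf8-positive cells had a Cebpe UMI against 59.1% of the others, and in the SI Elane gate 34.0% against 51.5%. Klf4 went with Irf8: 156 of the 157 control cells with a Klf4 UMI, 30 of 30 deleted cells and 49 of 52 SI cells also had an Irf8 UMI, against 53.5%, 46.4% and 47.3% of the cells without Klf4. In the Hlf gate, by contrast, control cells with an Irf8 UMI more often had a Gfi1 UMI (46.5%) than cells without it (24.4%). Of the 2493 control cells of the Hlf gate, 707 were also in the Elane gate, and their part in this was not tested. All shares of this paragraph rise with the depth of a cell and are given as descriptions.

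A contrast in the same direction appeared when the Elane gate was divided by F13a1 UMIs, a division chosen after the overlap of the gates had been seen. In control cells Irf8 rose from 42.9 CPM at 0 F13a1 UMIs to 65.1 CPM at 1 UMI and 291 CPM at 2 or more, and Klf4 from 0.0413 to 0.118 and 7.11 CPM. Cebpe fell from 134 CPM to 100 and 35.5 CPM over the same classes, and Gfi1 from 95.4 to 88.7 and 51.7 CPM. Spi1 varied little, at 277, 281 and 293 CPM. Among the rare control cells of the gate with at least 5 UMIs of Ngp, a gene of late granules, Cebpe stood at 322 CPM over 23 cells, against 79.8 CPM in cells without Ngp.

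In deleted Kit+ cells every member with enough UMIs for a call stood within 2-fold of control in the stem, neutrophil and monocyte gates, and the 6 with enough in the Flt3 gate were lower there, Gfi1 least. Over all 6 gates, 26 of the 42 pairs of a member and a gate had enough UMIs. None was called higher, and 6 were called lower, all in the Flt3 gate. Over all genes tested in the 6 gates, 6.04% were called higher and 6.35% lower. These shares include genes of the Fcer1a and Cd79a gates, where no member was tested. The other 16 pairs include all those of the Fcer1a gate (4 deleted cells) and of the Cd79a gate (47 control cells).

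In the Hlf gate of deleted cells none of the 6 members tested was called, where 1.22% of genes were called higher and 3.66% lower. Cebpa stood at 52.2 CPM against 54.2 in control, Spi1 at 217 against 212, Gfi1 at 44.3 against 43.7 and Irf8 at 51.2 against 56.3 CPM, and the intervals of these 4 ratios include 1. Cebpb was at 66.3 CPM against 54.8 (ratio 1.21, 1.04 to 1.40) and Cebpe at 45.9 CPM against 36.1 (ratio 1.27, 1.06 to 1.52). Klf4 had no UMI in the 186 deleted cells, which allows up to 0.984 CPM. These means join unlike cells: 68 of the 186 deleted and 707 of the 2493 control cells were also in the Elane gate. Neutrophil markers summed to 17077 CPM in deleted against 12424 in control cells of the Hlf gate. Erythroid markers summed to 192 against 812 and megakaryocyte markers to 92.2 against 319 CPM. The part of such cells in the members' values was not tested. In the 82 deleted and 1396 control cells that were in no other gate, Irf8 stood at 2.74 CPM against 13.3 (ratio 0.205, 0.0419 to 0.61) and Gfi1 at 3.65 CPM against 17.1 (ratio 0.214, 0.0577 to 0.555), while Spi1 kept a ratio of 0.994. The deleted values of Irf8 and Gfi1 there rest on few UMIs, hence the wide intervals. In the 108 deleted cells of the gate without a Cd79a UMI the direction of Irf8 was the opposite, at 72.9 CPM against 56.2 (ratio 1.30, 1.08 to 1.55). The Cebpe ratio also depended on the gate, with a log2 ratio of -1.25 when 2 Hlf UMIs were required in place of 0.35.

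The Elane gate of deleted cells held 554 cells, and none of its 7 members was called, where 2.57% of genes were called higher and 4.19% lower. The ratios ran from 0.823 for Cebpe (0.761 to 0.889) to 1.20 for Klf4 (0.848 to 1.66). Cebpe stood at 67.7 CPM against 82.2, Cebpa at 67.6 against 78.6 and Cebpb at 97.6 against 109 CPM, each lower beyond counting error. Spi1 stood at 300 CPM against 285 (ratio 1.05), Irf8 at 171 against 164 (ratio 1.04), Gfi1 at 71.3 against 73.7 (ratio 0.968) and Klf4 at 4.10 against 3.42 CPM.

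The classes of F13a1 UMIs, which depend on the depth of a cell, were unequal between the libraries. Median depth of the Elane gate was 19854 UMIs in deleted and 14418 in control cells. A Cd79a UMI was found in 43.5% of the deleted and 0.260% of the control cells of this gate. The part of depth and of such cells in the values below was not tested. Cells with at least 2 F13a1 UMIs made up 63.9% of the deleted Elane gate and 44.5% of the control one. In cells of the gate without F13a1 UMIs, Irf8 stood at 19.9 CPM in deleted against 42.9 CPM in control cells, a ratio of 0.463 (0.350 to 0.602), where 3.12% of genes were called lower. In cells with at least 2 F13a1 UMIs it stood at 249 against 291 CPM. Monocyte markers summed to 826 CPM against 1487 CPM in the cells without F13a1 UMIs. Cebpe and Gfi1 stayed close to control there, at 129 against 134 CPM and at 109 against 95.4 CPM.

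**Figure D2:**
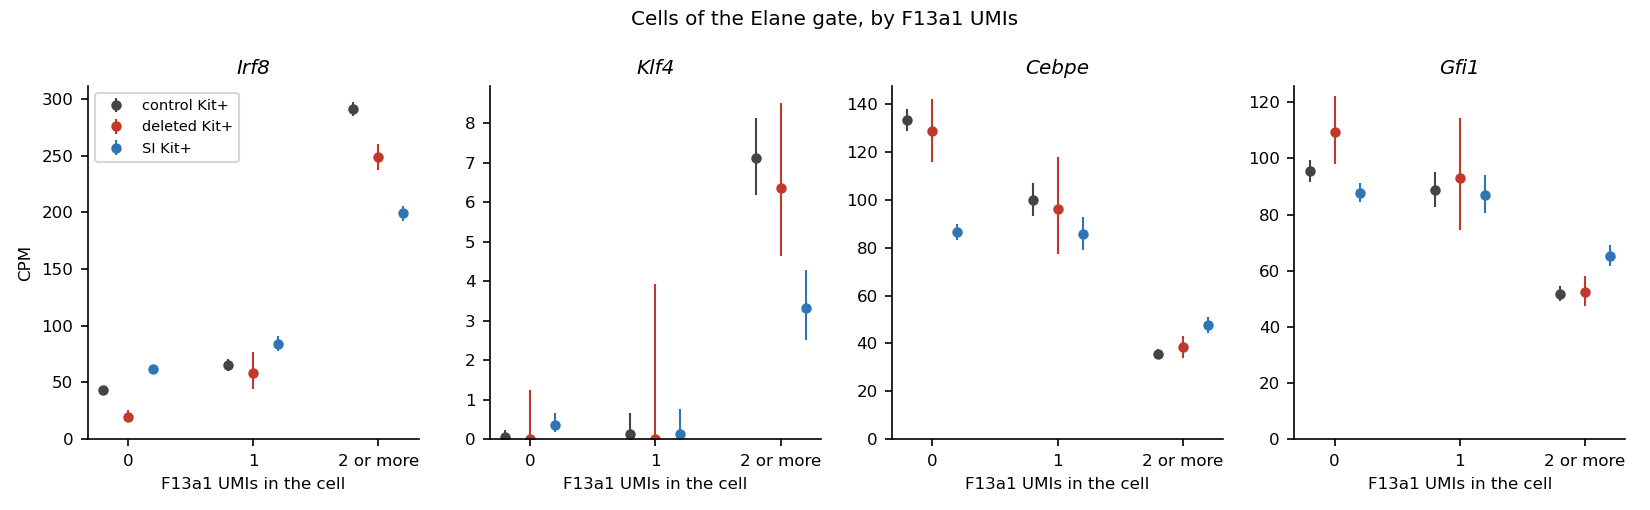
Irf8, Klf4, Cebpe and Gfi1 (CPM, axis from 0) in cells of the Elane gate with 0, 1, or 2 or more F13a1 UMIs in the 3 Kit+ libraries, with exact 95% Poisson intervals. Irf8 and Klf4 are high at 2 or more F13a1 UMIs and Cebpe and Gfi1 are low there in each library; Irf8 without F13a1 UMIs is at 19.9 CPM in deleted, 42.9 in control and 61.6 in SI cells.

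In the F13a1 gate none of the 7 members was called in deleted cells either, where 3.03% of genes were called higher and 3.49% lower. Irf8 stood at 245 CPM against 292 (ratio 0.837, 0.796 to 0.881) and Cebpb at 103 against 124 CPM (ratio 0.833, 0.770 to 0.900). For the other 5 the interval included 1: Klf4 was at 6.59 CPM against 6.80, Spi1 at 303 against 290, Cebpa at 64.5 against 68.3, Gfi1 at 50.3 against 50 and Cebpe at 36.5 against 33.3 CPM.

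The Flt3 gate behaved differently. All 6 members tested were called lower in deleted cells, where 14.5% of genes were called lower and 13.6% higher. Cebpe fell to 0.641 CPM from 15.7 in control (ratio 0.0407, 0.0148 to 0.0900), and Cebpa to 4.49 CPM from 59.6 (ratio 0.0754). Spi1 fell to 22.8 CPM from 244 (ratio 0.0934, 0.0810 to 0.107), Cebpb to 7.05 from 53.6 (ratio 0.132) and Irf8 to 22.5 from 166 CPM (ratio 0.136). Gfi1 fell least, to 15.6 CPM from 40.3 (ratio 0.387, 0.321 to 0.465). Klf4 had 3 UMIs in deleted and 9 in control cells and was not tested.

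In this gate 96.0% of the deleted and 0.375% of the control cells had a Cd79a UMI. In the 33 deleted cells without one, Spi1 stood at 220 CPM, Cebpa at 43.6, Cebpb at 69.1 and Irf8 at 229 CPM, against 243, 59.7, 53.4 and 165 CPM in control cells without Cd79a. Gfi1 stood at 18.2 CPM (8.72 to 33.4) against 40.2, and it alone was still called lower without the Cd79a-positive cells; Cebpe, with 3 UMIs, was not tested. In the 772 cells with at least 3 Cd79a UMIs, Spi1 was at 6.28 CPM, Irf8 at 6.98, Cebpb at 1.86 and Cebpa at 0.582 CPM. Cebpe had no UMI in these 772 cells, where 3 UMIs would stand at 0.349 CPM. Gfi1 was at 15.2 CPM in these cells. In these values 5 members separated the Cd79a-negative from the Cd79a-rich cells of the deleted gate by an order of magnitude or had no UMI in the latter, and Gfi1 did not separate them.

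Listed granulocytic and monocytic genes, not shown here to be targets of the members, were also mostly lower in the Flt3 gate of deleted cells. Of its 830 deleted cells 772 were also in the Cd79a gate, and the lists were not read without Cd79a-positive cells. Of 19 granulocytic genes of the C/EBP and Gfi1 arm, all 19 were called lower in the Flt3 gate (median log2 ratio -3.66, against -0.02 over all genes), and 0 lower and 1 higher in the Elane gate (median -0.03), whose own gate gene is among the 19. In the Hlf gate 1 was called higher and 3 lower (median -0.03), and of 19 monocytic genes there 0 and 1 (median -0.22). The gene called higher in the Elane gate was S100a8, a calcium-binding protein of granulocytes, at 370 CPM against 171. In the F13a1 gate 6 of the 19 were called higher and none lower, led by S100a8 at 377 CPM against 44.0. Of 19 monocytic genes of the Spi1, Irf8 and Klf4 arm tested in the Flt3 gate, 17 were called lower (median -3.54). In the Elane gate 1 of 20 was called lower, Itgam, the CD11b integrin, at 8.93 CPM against 19.2, and in the F13a1 gate 0 of 20 (median -0.38 against 0.03).

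The 35 related transcription factors were mixed in the Flt3 gate of deleted cells, where 7 of the 32 tested were called higher and 14 lower (median log2 ratio -0.48). Among them, in the Hlf, Elane and F13a1 gates, the largest ratio in deleted cells was that of Id3, an inhibitor of E-box binding factors. Id3 was at 35.4 CPM against 0.102 in the Hlf gate, 32.3 against 0.160 in the Elane gate and 39.0 against 0.470 CPM in the F13a1 gate, beside the raised B-lineage markers given above. In the Elane gate 2 of the 31 tested were called higher and 4 lower, among them Gata1 (1.82 against 7.71 CPM), Gfi1b (1.37 against 5.52 CPM) and Irf5 (5.19 against 13.7 CPM). Gata1 and Gfi1b are factors of the erythroid and megakaryocyte path, and Irf5 is an interferon regulatory factor of macrophages. In the same gate 9 erythroid markers, Gata1 among them, summed to 21.2 CPM in deleted against 148 in control cells and 7 megakaryocyte markers to 4.28 against 50 CPM. The part of such cells in these values was not tested.

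**Figure D3:**
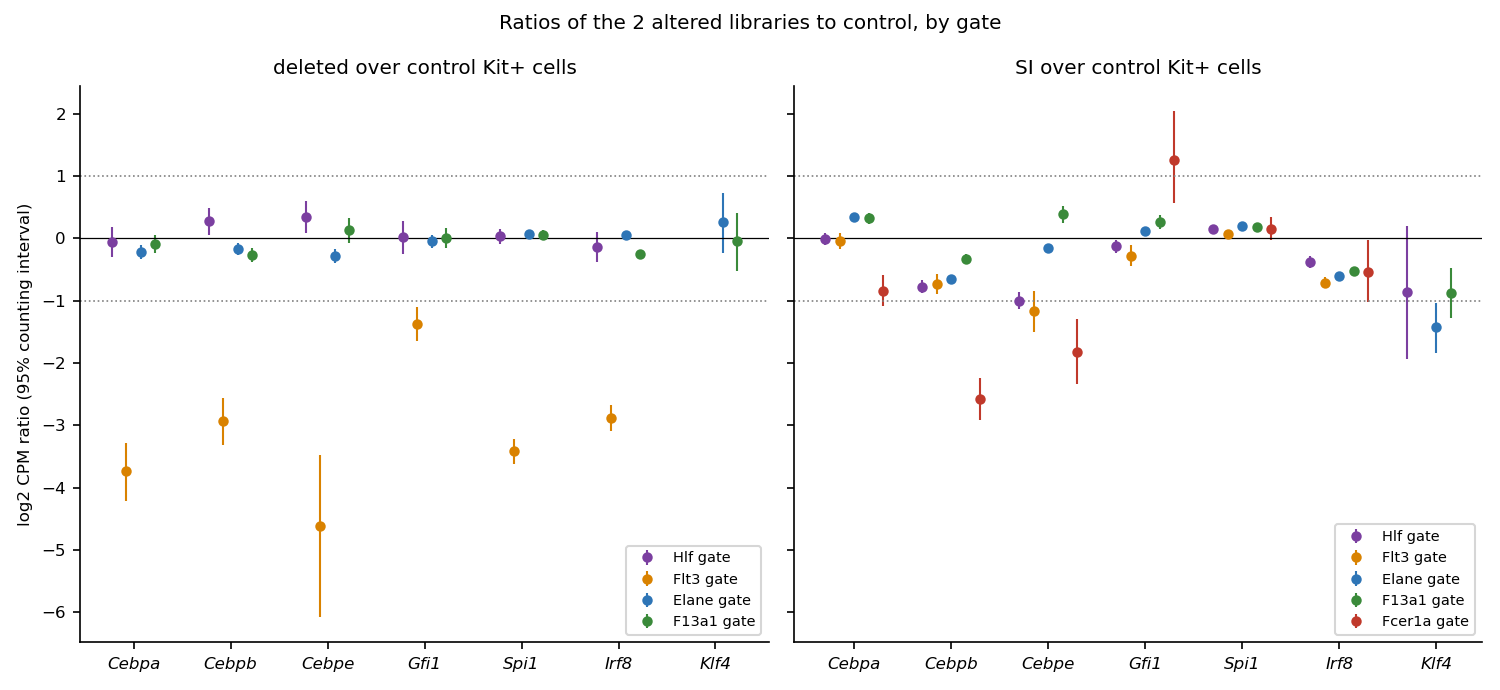
Log2 CPM ratio of each factor over control Kit+ cells by gate, for deleted (left) and SI (right) cells, with exact 95% counting intervals; dotted lines mark 2-fold, and the Cd79a gate and pairs with too few UMIs are not drawn. The 6 deleted ratios beyond 2-fold all belong to the Flt3 gate; in SI cells Cebpb, Irf8 and Klf4 lie under 0 in each gate drawn and Spi1 lies over 0.

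In the Cd79a gate the deleted cells held most of the factors at low levels. Cebpa stood at 2.02 CPM, Cebpb at 5.02, Cebpe at 2.30 and Klf4 at 0.449 CPM over 12591 cells, and Spi1 and Irf8, which B cells also make, at only 12.4 (11.7 to 13.1) and 7.71 CPM (7.17 to 8.28). Gfi1 stood at 23.5 CPM (22.5 to 24.5). The 47 control Kit+ cells of this gate held Spi1 at 155 CPM and Irf8 at 178 CPM but also neutrophil markers at 8823 CPM in sum against 879 CPM in deleted cells, and were too few for a call.

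The control B220lo library gave a larger set of Cd79a-positive cells, taken through another sort and compared here after the data were seen. Over all Cd79a-positive cells, 3 of the 7 members were called lower in deleted Kit+ cells and none higher, where 16.4% of genes were called lower and 18.0% higher. Spi1 stood at 12.4 CPM against 126 (ratio 0.0983, 0.0924 to 0.105), Irf8 at 7.71 against 240 (ratio 0.0321, 0.0298 to 0.0346) and Klf4 at 0.449 against 6.49 CPM (ratio 0.0692). Gfi1 stood at 23.5 against 15.8 CPM (ratio 1.48, 1.37 to 1.61). In the same cells dendritic markers summed to 1043 CPM in deleted against 3687 in B220lo cells, and monocyte markers to 64.2 against 394 CPM. Over all kept B220lo cells Irf8 stood at 603 CPM. The part of dendritic or monocyte cells, or of their free RNA, in these values was not tested.

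At least 3 UMIs of Igll1, a surrogate light chain of early B cells, were found in 96.2% of the deleted and 14.1% of the B220lo cells. This cut depends on depth, and the median depth of the Cd79a gate was 6458 UMIs in deleted and 3077 in B220lo cells. The parts of stage and depth in these shares were not tested. Among these Igll1-rich cells, Spi1 stood at 11.6 CPM against 70.5 (ratio 0.165, 0.152 to 0.179), Irf8 at 7.62 against 144 (ratio 0.0528, 0.0485 to 0.0573) and Klf4 at 0.438 against 4.57 CPM (ratio 0.0960). Gfi1 was at 23.1 against 19.7 CPM (ratio 1.17, 1.05 to 1.32). Cebpa was called higher, at 1.85 against 0.613 CPM (ratio 3.02, 1.64 to 6.15), with neutrophil markers summing to 818 CPM against 430. Thus 3 members were called lower and 1 higher, where 9.7% of genes were called lower and 17.0% higher. Sort, sex and genotype cannot be told apart in this comparison.

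**Figure D4:**
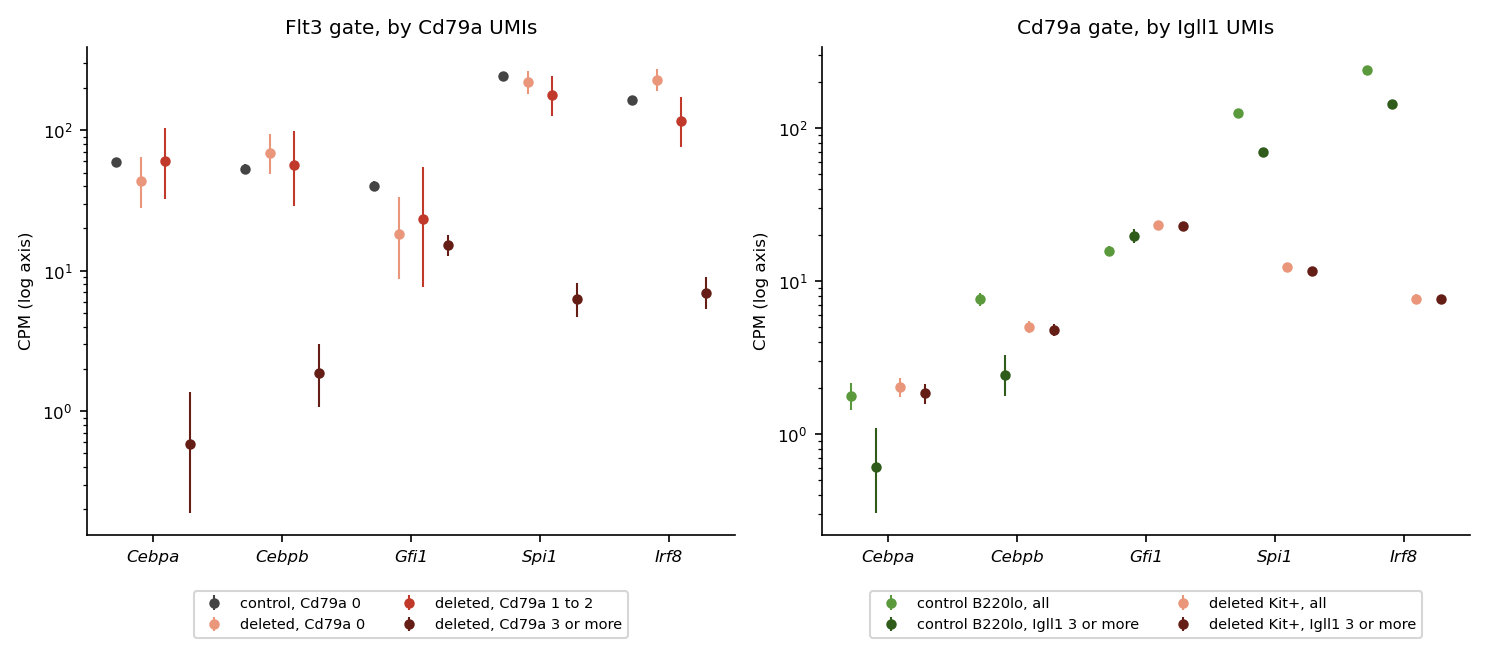
Left, 5 factors (CPM, log axis) in the Flt3 gate of control cells without Cd79a UMIs and of deleted cells with 0, 1 to 2, or 3 or more; right, the same factors in the Cd79a gate of the control B220lo and deleted Kit+ libraries, for all cells and for cells with at least 3 Igll1 UMIs. Bars are exact 95% Poisson intervals. Spi1 and Irf8 stand at 6.28 and 6.98 CPM in the Cd79a-rich deleted cells of the left panel, and Gfi1 at 15.2 CPM.

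In SI Kit+ cells the factors moved apart from each other within the same gates. In the Hlf, Flt3, Elane and F13a1 gates Cebpb and Irf8 were lower than in control and Spi1 was slightly higher, Klf4 was lower in the Elane and F13a1 gates, and Cebpe and Gfi1 differed by gate. Mast cell or basophil markers also moved with the SI library, summing to 923 against 356 CPM in the Hlf gate, 472 against 191 in the Flt3 gate, 719 against 302 in the Elane gate and 318 against 147 CPM in the F13a1 gate. Of the 3238 SI cells of the Hlf gate 700 were also in the Fcer1a gate, against 17 of 2493 in control. The part of such cells in the members' values was not tested beyond the cells of 1 gate given below. Of 42 pairs 36 had enough UMIs. Of these 1 was called higher and 5 lower, where 3.4% of all genes tested over the gates were called higher and 2.74% lower. Gate by gate, the shares of genes called higher and lower were 3.45% and 3.3% in the Hlf gate, 3.25% and 2.13% in the Flt3 gate, and 3.63% and 2.69% in the Elane gate. They were 2.94% and 1.53% in the F13a1 gate, 3.74% and 2.55% in the Fcer1a gate, and 3.51% and 7.25% in the Cd79a gate.

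Cebpb was lower in SI cells in 5 gates. In Hlf-gate cells that were in no other gate its ratio was 0.830 (0.721 to 0.955). It stood at 32.1 CPM against 54.8 in the Hlf gate (ratio 0.585, 0.544 to 0.630), 32.2 against 53.6 in the Flt3 gate (ratio 0.601) and 69.6 against 109 CPM in the Elane gate (ratio 0.637, 0.612 to 0.663). In the F13a1 gate the ratio was 0.800 (98.9 against 124 CPM). The difference was largest in the Fcer1a gate, at 11.4 against 68.1 CPM, where it was called (ratio 0.167, 0.133 to 0.211). An opposite value came from the few F13a1-gate cells under the Elane threshold, where Cebpb stood at 186 CPM in 161 SI cells against 46.0 CPM in 169 control cells (ratio 4.03, 3.21 to 5.10). In these cells Spi1 was also higher, at 405 against 248 CPM. Among SI cells of the F13a1 gate that were in no other gate, 8 monocyte markers summed to 7355 CPM against 1264 CPM in control.

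Irf8 was also lower in SI cells, with a direction that depended on the cells taken. It stood at 43.3 against 56.3 CPM in the Hlf gate (ratio 0.769), 101 against 166 in the Flt3 gate (ratio 0.611, 0.574 to 0.651) and 108 against 164 CPM in the Elane gate (ratio 0.659, 0.639 to 0.681). In the F13a1 gate it stood at 203 against 292 CPM (ratio 0.693, 0.667 to 0.719), and none of these 4 pairs reached 2-fold. The SI Elane gate had 29.0% of its cells with at least 2 F13a1 UMIs against 44.5% in control. Without any F13a1 UMI, Irf8 was higher in SI cells, at 61.6 against 42.9 CPM (ratio 1.43, 1.33 to 1.55), and with 2 or more it was lower, at 199 against 291 CPM. Likewise, Irf8 stood at 24.4 against 13.3 CPM in Hlf-gate cells that were in no other gate (ratio 1.83, 1.52 to 2.21). In the Fcer1a gate the log2 ratio of Irf8 turned from -0.54 to 0.79 in such cells, and in the Flt3 gate it went from -0.71 to -0.14. Of the Flt3 gate, 114 of 1227 SI and 287 of 1066 control cells were also in the F13a1 gate. Monocyte markers summed to 565 against 914 CPM in the Flt3 gate, and their part in its Irf8 value was not tested.

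Klf4 was called lower in the Elane gate of SI cells, at 1.27 against 3.42 CPM (ratio 0.372, 0.280 to 0.489; the log2 ratio of -1.43 became -0.96 with a pseudocount of 1 CPM), and stood at 3.72 against 6.80 CPM in the F13a1 gate (ratio 0.547, 0.413 to 0.717). In the Hlf gate it stood at 0.357 against 0.648 CPM, from 15 and 19 UMIs (ratio 0.551, 0.260 to 1.14), and the Flt3 gate (6 and 9 UMIs) and Fcer1a gate (1 and 0 UMIs) had too few for a call. In cells positive for both the Elane and F13a1 gates it was at 3.32 against 7.11 CPM. After thinning each cell to 2000 UMIs, 0.300% of SI and 0.691% of control Elane-gate cells had a Klf4 UMI (unthinned, 1.55% and 3.72%), and none of 632 SI and 1479 control erythroid cells did after thinning.

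Cebpe differed in direction between the gates of SI cells. It stood at 18.1 against 36.1 CPM in the Hlf gate, a ratio of 0.501 (0.456 to 0.550) that lay just inside 2-fold. That ratio stayed inside 2-fold under 7 of 12 alternatives, and its log2 value of -0.998 became -1.78 with gates set on cells thinned to equal depth. In the Flt3 gate Cebpe stood at 7.0 against 15.7 CPM and was called lower (ratio 0.444, 0.352 to 0.558). That call was lost with gates set on thinned cells (log2 ratio -0.77 in place of -1.17) and with the mean of CPM per cell (-0.97). Of the Flt3 gate, 190 of 1227 SI and 325 of 1066 control cells were also in the Elane gate. Neutrophil markers summed to 9024 against 11653 CPM in the Flt3 gate, and their part in its Cebpe value was not tested. In the Elane gate Cebpe stood at 74.1 against 82.2 CPM (ratio 0.901) and in the F13a1 gate at 43.4 against 33.3 CPM (ratio 1.31, 1.19 to 1.43). Its ratio was 0.877 (0.840 to 0.916) in Elane-gate cells without Ngp. It was 1.96 (1.57 to 2.47, from 189 and 135 UMIs) in those with at least 5 Ngp UMIs. The Elane gate held both directions: at 0 F13a1 UMIs Cebpe stood at 86.6 against 134 CPM (ratio 0.649), and at 2 or more at 47.6 against 35.5 CPM. The difference between cells with and without F13a1 UMIs was therefore smaller in SI than in control cells for both Irf8 and Cebpe.

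Cebpa and Spi1 were not lowered in these gates of SI cells. Cebpa stood at 53.9 against 54.2 CPM in the Hlf gate and 57.9 against 59.6 CPM in the Flt3 gate, with intervals that include a ratio of 1. It was higher in the Elane gate, at 100 against 78.6 CPM (ratio 1.27, 1.23 to 1.32), and in the F13a1 gate, at 85.4 against 68.3 CPM (ratio 1.25, 1.17 to 1.33). Spi1 ratios ran from 1.05 in the Flt3 gate to 1.15 in the Elane gate (328 against 285 CPM). Gfi1 was at 80.5 against 73.7 CPM in the Elane gate (ratio 1.09) and 60.3 against 50 CPM in the F13a1 gate (ratio 1.21, 1.12 to 1.30). It was lower in the Hlf gate, at 40.0 against 43.7 CPM (ratio 0.915, 0.851 to 0.985), and in the Flt3 gate, at 33.3 against 40.3 CPM (ratio 0.827). In Hlf-gate cells that were in no other gate it was higher, at 26.2 against 17.1 CPM (ratio 1.53, 1.29 to 1.81).

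The Fcer1a gate, with 2341 SI and 127 control cells, gave the widest spread between members. Beside Cebpb, Cebpe was called lower, at 7.31 against 26.0 CPM (ratio 0.282, 0.198 to 0.410), and Gfi1 was called higher, at 28.5 against 11.9 CPM (ratio 2.39, 1.48 to 4.12, from 17 UMIs in control). Cebpa stood at 57.1 against 102 CPM (ratio 0.557), Irf8 at 17.8 against 26.0 CPM and Spi1 at 210 against 188 CPM (ratio 1.11, 0.986 to 1.26). With doublets kept, or with all deposited barcodes, the Gfi1 log2 ratio was 0.86 in place of 1.26 and no longer called.

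The kinds of cell in this gate differed. Mcpt8, a basophil protease, had at least 3 UMIs in 11% of the control and 1.24% of the SI cells, and 700 of the 2341 SI cells were also in the Hlf gate, against 17 of 127 in control. The Elane gate took 106 of these SI and 19 of these control cells. Neutrophil markers summed to 5905 CPM in SI against 7487 in control cells and monocyte markers to 242 against 435 CPM. The part of such cells in the Cebpb and Cebpe values was not tested. In cells without Mcpt8, Cebpb still stood at 10.7 against 63.1 CPM (ratio 0.169, 0.128 to 0.226) and Gfi1 at 27.5 against 7.13 CPM. Cebpa stood at 54.7 against 75.3 CPM without Mcpt8, and at 81.3 against 208 CPM in the 29 SI and 14 control cells with at least 3 Mcpt8 UMIs.

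In the Cd79a gate, with 28 SI and 47 control cells, Irf8 was called lower at 62.1 against 178 CPM (ratio 0.350, 0.184 to 0.627), and Spi1 (120 against 155 CPM) and Cebpb (62.1 against 57.1 CPM) were not. The Irf8 call was lost with cells of 1 gate only (log2 ratio -0.24 in place of -1.52) and with the mean of CPM per cell (-0.14). Other markers differed between these cells too: neutrophil markers summed to 4638 CPM in SI against 8823 in control, erythroid markers to 137 against 1123 and mast cell or basophil markers to 580 against 72.9 CPM, and their part in the Irf8 value was not tested.

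Among the related transcription factors in SI cells, Irf7, an interferon-induced relative of Irf8, was called higher in all 6 gates, with 67.8 against 16.7 CPM in the Hlf gate, 32.0 against 5.33 in the Elane gate and 61.4 against 4.07 CPM in the F13a1 gate. Of 32 related factors tested, 2 were called higher and 2 lower in the Hlf gate, 2 and 1 in the Flt3 gate, and 2 and 0 in the Elane gate. They gave 2 and 2 of 30 in the F13a1 gate, 2 and 4 of 24 in the Fcer1a gate, and 2 and 0 of 18 in the Cd79a gate. Id1 was called higher in the Hlf and Elane gates, and Gata1 lower in the Hlf, Flt3, F13a1 and Fcer1a gates. The erythroid markers, which include Gata1 itself, summed lower in the same 4 gates, at 264 against 812, 133 against 398, 51.6 against 188 and 175 against 477 CPM. They also summed lower in the Elane gate (54.9 against 148 CPM) and the Cd79a gate (137 against 1123 CPM), where Gata1 was not called lower. The part of erythroid cells in the Gata1 values was not tested. Of 19 granulocytic genes, which include Elane itself, 1 was called higher and 2 lower in the Elane gate, with Nkg7, a granule protein, at 274 against 718 CPM. The same 19 gave 0 higher and 2 lower in the Hlf gate, 0 and 5 in the Flt3 gate (median log2 ratio -0.59) and 1 and 4 in the F13a1 gate, and the 15 tested in the Fcer1a gate gave 6 and 4. In the Cd79a gate 1 of 10 was called higher and 5 lower (median -1.05, against -0.14 over all genes). Of 20 monocytic genes, 0 were called higher and 1 lower in both the Hlf and the Elane gate, and 0 and 4 in the Flt3 gate. In the Fcer1a gate 2 of 13 were called higher and 2 lower, and in the Cd79a gate 2 of 10 higher and 1 lower. In the F13a1 gate 2 of 20 were called higher and none lower, Lyz2 (1312 against 349 CPM) and Ctss (78.2 against 33.4 CPM), the lysozyme and a lysosomal protease of monocytes. The heat shock genes Hspa1a and Hspa1b stood at 25.3 against 3.84 and 33.6 against 5.50 CPM in the SI Elane gate, and at 13.2 and 14.6 CPM in the deleted one, and the part of cell handling in the members' values was not tested.

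Set directly against SI cells, deleted cells gave 26 pairs with enough UMIs, of which 3 were called higher and 6 lower. Over all genes tested in the 6 gates, 5.56% were called higher and 7.09% lower, the Fcer1a and Cd79a gates included, where no member was tested. The 6 lower pairs were again those of the Flt3 gate. The 3 higher pairs were Cebpb in the Hlf gate (66.3 against 32.1 CPM), Cebpe in the Hlf gate (45.9 against 18.1 CPM) and Klf4 in the Elane gate (4.10 against 1.27 CPM), members that in these gates were lower in SI than in control cells. Against control the deleted ratios of these pairs were 1.21, 1.27 and 1.20, of which that of Cebpe turned to a log2 ratio of -1.25 with 2 Hlf UMIs required, as given above. The calls against SI cells were not recomputed under other settings.

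Genes with the most similar pattern over 15 combinations of gate and library were ranked by Pearson's r of log2(CPM + 1), as a description of points that share cells and libraries. The closest genes were Rab44 (0.997) for Cebpa, Scnn1a (0.989) for Cebpb, Tslp (0.975) for Cebpe and Rab2a (0.961) for Gfi1. They were Serpinb1a (0.996) for Spi1, Ly86 (0.985) for Irf8 and Dgat2 (0.932) for Klf4. Among the members themselves Cebpa and Spi1 were most alike (0.976), then Cebpb and Cebpe (0.913), and Cebpa and Klf4 least (0.293). The points include the Flt3 and Cd79a gates of deleted cells, where Cebpa stood at 4.49 and 2.02 CPM and Spi1 at 22.8 and 12.4 CPM. The part of these points in the values of r was not tested.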

How the data were processed

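The deposited matrices held raw UMI counts per gene and cell barcode, made by the authors with Cell Ranger 7.1.0 on mm10, per the submitters' processing notes, from a 10x Genomics 5′ v2 kit, per the labels' protocols. The assembled receptor contigs were not used. The cell filter asked for 1000 UMIs, 500 genes and a mitochondrial share of no more than 10%. Doublets with a Scrublet score over 0.25 (scanpy 1.11.5, expected share 8%) were left out, which removed 840 control, 1168 deleted, 580 SI and 947 B220lo barcodes and kept 11051, 13747, 11501 and 15382 cells. The files held 85445426 to 166327773 UMIs a library. UMIs were summed by gate and library, and PCR copies are collapsed in them. Levels have exact Poisson intervals, ratios exact conditional binomial intervals (scipy 1.17.1); a count of 0 was set to 3 for calls. The ratio step was also run on counts for 11333 genes, simulated with Poisson error only from the gene rates of the control Elane gate. It called 100% of 200 well-counted genes changed 4-fold and 0.287% of the others. Differences between libraries or in the mix of cells were not simulated, so these shares are not error rates of the calls above. The members were named whatever their change; from each list the 3 largest ratios each way past 2-fold, and for likeness the 3 highest r, could be named. Members, gates and lists were chosen with earlier results of these data known.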

Additional observations from a re-analysis of the deposited data

Results flagged for a closer look

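Some members differed in opposite directions in different gates of the same library, each with a counting interval that excludes no difference. These contrasts between gates were not tested, as each rests on 1 library a group. In deleted over control cells, the log2 ratio of Cebpb was 0.28 in the Hlf gate and -2.93 in the Flt3 gate. That of Cebpe was 0.35 in the Hlf gate and -4.62 in the Flt3 gate, and that of Spi1 was 0.07 in the Elane gate and -3.42 in the Flt3 gate. The Flt3 gate of deleted cells is the one in which 96.0% of cells had a Cd79a UMI. Without cells with such a UMI the Flt3 value of Cebpb turned to 0.37 and that of Spi1 became -0.15, and with the thresholds of the gates doubled the Hlf value of Cebpe turned to -1.25, so the opposite directions of Cebpb and Cebpe did not hold under these settings. In SI over control cells, the log2 ratio of Cebpa was 0.35 in the Elane gate and -0.84 in the Fcer1a gate. That of Cebpe was 0.39 in the F13a1 gate and -1.83 in the Fcer1a gate, and that of Gfi1 was 1.26 in the Fcer1a gate and -0.27 in the Flt3 gate.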

How the results depend on the processing

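Of 12 alternatives, those that left a pair enough UMIs were counted for it (9 to 11 for the pairs that kept their call). Under these, 4 of the 12 pairs called against control kept their call and 10 their direction, and 40 of the 50 pairs within 2-fold stayed there. With cells of 1 gate only, 2 pairs were called lower in deleted cells, Gfi1 (-2.23) and Irf8 (-2.28) in the Hlf gate, both from few deleted UMIs. Neither is among the 6 pairs of the Flt3 gate. Spi1 and Irf8 in the Flt3 gate were at -0.52 and -0.85 and the other Flt3 pairs had too few UMIs. The count of 6 became 1 without cells with a Cd79a UMI and 11 without the filter on low counts. Without Cd79a-positive cells, Cebpb and Irf8 in the Flt3 gate turned to log2 ratios of 0.37 and 0.47. The count of 1 pair called higher in SI cells became 0 with all deposited barcodes or with doublets kept, 3 with cells of 1 gate only, and 2 with the mean of CPM per cell or without the filter on low counts. The count of 5 pairs called lower in SI cells became 0 with cells of 1 gate only, where Irf8 in the Cd79a gate lost its call and the other 4 had too few UMIs. For the other settings each of these counts stayed within 1.5 times its value. Restricting gates leaves fewer cells and genes tested; the cause of other changes was not tested. No paired analysis was possible because each group is 1 library and the labels carry no replicate numbers. Depth limits Klf4, and the number of cells limits the Fcer1a gate of deleted cells and the Cd79a gates of control and SI Kit+ cells.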
